A study of Mus musculus with 4 samples.

Results

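The genes described here encode transcription factors that direct the T cell and natural killer T (NKT) cell lineages: Tbx21, Gata3, Zbtb16, Eomes, Foxp3, Ikzf2, Tcf7, Bcl11b and Maf. They were followed on 4 Affymetrix mouse expression arrays of dendritic cells (DC), which present antigen to T cells and here were cultured from C57BL/6 bone marrow. Immature DC filled 2 arrays, and NKT-modulated DC, the cells of the other group, filled 2. RNA was taken from cells bearing CD11c, a DC integrin, per the design text. The source of the NKT cells, the number of them, the culture time, and the age and number of the mice were not stated in the labels or the design text. Nothing says whether the 2 arrays of a group came from separate cultures, so p-values reflect no more than the spread between arrays, and that spread may be technical. A probe set was taken as a member when 1 of the 9 genes was its only annotated symbol. Of 22626 probe sets tested, 10 qualified, covering 8 of 12393 genes; Zbtb16 and Eomes had 2 probe sets each, and Tcf7 was not analysed here.

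These factors divide the labour of lymphocyte identity. BCL11B and TCF-1, the product of Tcf7, act early to commit progenitors to the T lineage. T-bet, encoded by Tbx21, drives type 1 T cells that make interferon gamma, and its T-box relative Eomes acts in memory CD8 T cells and NK cells. GATA3 is needed for T cell development and drives type 2 cells that make IL-4, IL-5 and IL-13. PLZF, encoded by Zbtb16, gives NKT cells their innate-like effector state, and NKT subsets are commonly told apart by factors that include PLZF, T-bet and GATA3. FOXP3 and Helios, encoded by Ikzf2, belong to regulatory T cells, and c-MAF promotes IL-4 and IL-10 in T cells. DC identity, by contrast, rests on other factors, such as PU.1 and IRF8.

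Gata3, Tbx21 and Bcl11b were higher in NKT-modulated DC, and so was 1 of 2 probe sets of Zbtb16. For the first 3, the 250 bases before the RefSeq transcription start are shown. Whether these genes share any control was not tested. The window of Eomes, the T-box relative of Tbx21 whose change did not pass the test, is shown beside them. All are from the RefSeq promoter table of build GRCm38.p6, 5′ to 3′ on the strand of the gene.
Gata3 (chr2:9878601-9878850, minus strand): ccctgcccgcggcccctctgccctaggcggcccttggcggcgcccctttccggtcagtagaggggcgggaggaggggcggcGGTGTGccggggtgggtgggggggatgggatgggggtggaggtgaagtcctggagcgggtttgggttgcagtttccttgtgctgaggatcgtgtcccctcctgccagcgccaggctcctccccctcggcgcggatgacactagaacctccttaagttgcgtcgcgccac
Tbx21 (chr11:97115332-97115581, minus strand): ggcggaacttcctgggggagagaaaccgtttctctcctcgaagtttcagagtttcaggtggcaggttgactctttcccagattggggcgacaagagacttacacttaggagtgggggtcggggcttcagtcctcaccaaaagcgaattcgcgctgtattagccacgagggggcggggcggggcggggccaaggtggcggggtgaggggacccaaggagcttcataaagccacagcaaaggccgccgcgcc
Bcl11b (chr12:108003415-108003664, minus strand): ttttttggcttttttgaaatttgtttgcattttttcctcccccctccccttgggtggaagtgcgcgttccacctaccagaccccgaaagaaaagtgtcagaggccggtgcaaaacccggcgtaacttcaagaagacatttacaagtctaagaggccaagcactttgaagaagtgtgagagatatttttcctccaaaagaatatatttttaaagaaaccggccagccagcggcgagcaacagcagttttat
Eomes (chr9:118477939-118478188, plus strand): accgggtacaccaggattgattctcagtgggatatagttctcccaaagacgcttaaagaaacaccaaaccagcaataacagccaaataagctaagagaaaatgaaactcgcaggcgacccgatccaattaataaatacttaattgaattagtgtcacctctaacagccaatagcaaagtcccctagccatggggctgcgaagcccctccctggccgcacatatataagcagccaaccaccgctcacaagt
Capitals mark matches, on both strands, to any of 5 motifs: a GATA site (AGATAA or TGATAA, with G also allowed as the last base), a T-box core (GGTGTG), a RUNX site (TGTGGT), a STAT site (TTCNNNGAA) and an AP-1 site (TGANTCA). The Gata3 window held 1 T-box core, which began 169 bases before the start. The Tbx21, Bcl11b and Eomes windows held none of these strings. Not shown are 2 windows of Foxp3, whose change did not pass the test either. Of these, 1 held 2 GATA sites, and the other held 1 GATA site and 1 STAT site. Among 32851 windows of the same length, 16.3% held a T-box core, 26.5% a GATA site, 14% a RUNX site, 7.02% a STAT site and 6.75% an AP-1 site. The GC content was 70.0% for Gata3, 60.8% for Tbx21, 44.8% for Bcl11b and 46.4% for Eomes. A match is a string in this window and not a measured binding site. Of the 9 genes, 6 had an entry in the promoter table.

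The question was which of these factors differed in RNA level between NKT-modulated and immature DC. Of the 10 probe sets, 4 were higher, 0 were lower and 6 did not pass at an adjusted p under 0.05 in limma, a linear model with moderated variance, adjusted over all probe sets. Among all probe sets 5.36% were called higher and 5.70% lower, so that 48.5% of calls were higher; this share was 36.6% without further normalization and 59.8% without the intensity trend of the variance. Both NKT-modulated arrays lay above both immature arrays for 5 of the 10 probe sets, against 23.7% of all probe sets. Most of the 10 were dim, and 8 lay below the median signal on all 4 arrays. Beside the factors, 8 of 17 T cell markers rose, against 5.99% of all genes. The factors and all gene lists were chosen with earlier results of these data known, so such counts are descriptions only. The summed signals of the 4 CD3 chains were 55.4 and 33.5 in immature against 2309 and 1583 in NKT-modulated DC. The median change of the 10 was 0.34 on the log2 scale, against -0.03 for all probe sets. Changes below are differences of quantile-normalized log2(signal + 16), NKT-modulated minus immature, with SE and n = 2 arrays per group. Because many immature signals lay below the pseudocount of 16, such changes understate the ratio of signals and depend on that choice. Bulk RNA was measured, so that more cells of a type and more RNA per cell cannot be told apart.

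**Figure D1:**
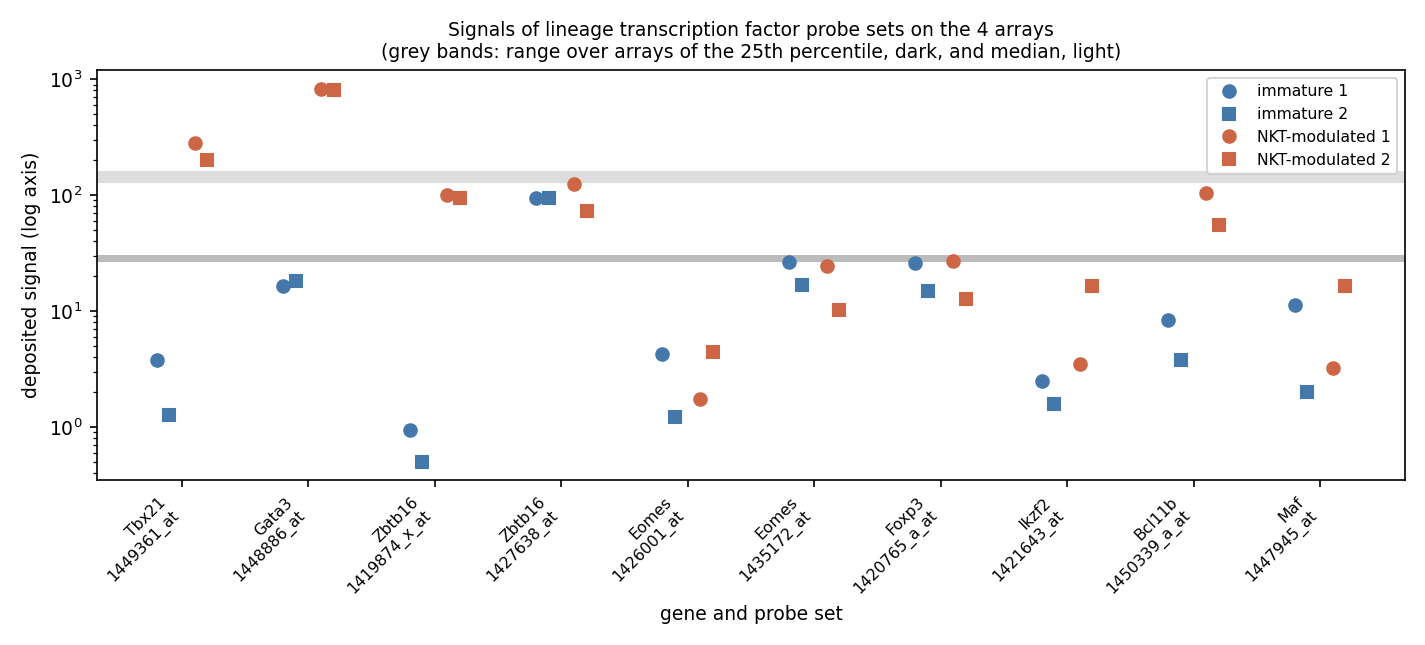
Deposited signal (log axis) of the 10 probe sets on each of the 4 arrays, with blue points for immature and orange points for NKT-modulated DC; circles are replicate 1 and squares replicate 2. The dark and light grey bands span the 25th percentile and the median of the arrays. For Gata3 the NKT-modulated points stand at 825 and 812 above immature points of 16.5 and 18.2, whereas the points of Foxp3 and of both Eomes probe sets intermix.

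Gata3, the type 2 and T cell development factor, had the steepest rise of the group at pseudocounts of 16 and 64. With a pseudocount of 1, Tbx21 (6.29) and probe set 1419874_x_at of Zbtb16 (5.90) exceeded it (5.56), and the ratio of mean signals was 47.2 for Gata3, 96.2 for Tbx21 and 133 for that probe set. Immature DC gave signals of 16.5 and 18.2, and NKT-modulated DC gave 825 and 812. The groups were far apart and the arrays within each group lay close together. The immature signals lay below the 25th percentile of their arrays, and the NKT-modulated ones at percentiles 79.05 and 79.13. The change was 4.72 ± 0.19 (95% confidence interval 4.26 to 5.18, adjusted p = 1.03e-04). It ranked 22 among the rises of 12393 genes. Over 11 alternatives the change lay between 3.51 and 5.56 and passed in 11, with adjusted p from 1.25e-06 to 0.00388.

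Tbx21, which encodes the type 1 factor T-bet, also rose. Signals of 3.78 and 1.27 in immature DC stood against 283 and 203 after modulation. The groups did not overlap, and the immature signals were among the dimmest of their arrays, at percentiles 5.33 and 1.35. The change was 3.90 ± 0.27 (95% confidence interval 3.24 to 4.56, adjusted p = 7.68e-04), rank 33 among the rises of all genes. With a pseudocount of 1 it was 6.29 and with 64 it was 2.28, and all 11 alternatives passed, with adjusted p from 4.92e-05 to 0.00741. The rises of Gata3 and Tbx21 were thus seen in the same arrays; whether they occurred in the same cells was not measured.

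Zbtb16, which encodes the NKT factor PLZF, gave different answers from its 2 probe sets. Probe set 1419874_x_at read 0.949 and 0.503 in immature DC and 99.8 and 94.0 in NKT-modulated DC. Its groups were far apart, and its immature signals were at percentiles 0.5 and 0.19 of their arrays. Its NKT-modulated signals were at percentiles 45.24 and 45.28, below the median. Its change was 2.81 ± 0.24 (95% confidence interval 2.23 to 3.40, adjusted p = 0.00151), with 5.90 and 1.35 at pseudocounts of 1 and 64. It passed in 10 of 10 alternatives, with adjusted p from 9.09e-04 to 0.0147. The filter on dim probe sets (a signal of 100 in at least 2 arrays) left it out of the fit and is not among those alternatives. The suffix _x_at is the maker's mark for a set with probes that can match other sequences too. Probe set 1427638_at read 94.2 and 95.4 in immature DC and 125 and 72.7 in NKT-modulated DC. The last 2 values enclose the first 2, so the groups overlapped. Its change was 0.13 ± 0.29 (95% confidence interval -0.56 to 0.83, adjusted p = 0.839). This was the brighter of the pair over all arrays, so a count of genes by their brightest probe set leaves Zbtb16 among those that did not pass.

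Bcl11b, the T lineage commitment factor, read 8.32 and 3.75 in immature DC and 105 and 54.8 in NKT-modulated DC. The groups did not overlap, but the NKT-modulated arrays differed from each other more than they did for Gata3. The change was 2.12 ± 0.33 (95% confidence interval 1.33 to 2.91, adjusted p = 0.0113), rank 122 among the rises of all genes. The threshold was missed when either immature array was left out, in fits with fewer degrees of freedom. Without immature replicate 1 the change was 2.25 with adjusted p = 0.0512, and without immature replicate 2 it was 1.96 with adjusted p = 0.0666; over 10 alternatives adjusted p ranged from 0.00882 to 0.0666. With pseudocounts of 1 and 64 the change was 3.56 and 1.05. The NKT-modulated signals lay below the median, at percentiles 45.97 and 37, and the filter on dim probe sets left Bcl11b out of the fit.

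The other 4 genes did not pass the test, and their 5 probe sets were dim, below the 25th percentile of the array on all 4 arrays. Eomes, the T-box factor of NK and memory CD8 T cells, had signals of 26.5 and 16.9 against 24.7 and 10.3 in probe set 1435172_at, with a change of -0.20 ± 0.29 (95% confidence interval -0.92 to 0.52, adjusted p = 0.749). Its other probe set, 1426001_at, read 4.28 and 1.22 against 1.75 and 4.42, with a change of 0.03 ± 0.20 (95% confidence interval -0.47 to 0.53). Both sets overlapped between the groups, and their intervals lay below the change of Tbx21. That difference between the 2 T-box genes was not tested.

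Foxp3, the regulatory T cell factor, read 25.8 and 15.0 in immature DC and 26.9 and 12.7 in NKT-modulated DC. The values of the groups interleaved. Its change was -0.04 ± 0.29 (95% confidence interval -0.75 to 0.67, adjusted p = 0.956). Ikzf2, the gene of Helios, had signals of 2.47 and 1.58 against 3.52 and 16.4. Its groups did not overlap, but 1 NKT-modulated array carried most of the difference: the change was 0.49 ± 0.30 (95% confidence interval -0.24 to 1.21, adjusted p = 0.386), and 0.09 without NKT-modulated replicate 2. Maf, whose product c-MAF acts on the Il4 promoter in T cells, read 11.2 and 2.00 against 3.20 and 16.6 in its single probe set. The groups overlapped, and the change was 0.19 ± 0.35 (95% confidence interval -0.65 to 1.03, adjusted p = 0.803). At the pseudocount of 16 the intervals of these 5 probe sets reached at most 1.21, below the change of Bcl11b (2.12). This bound depends on the pseudocount: with 1 instead of 16 the change of Ikzf2 was 1.53 and did not pass. Its ratio of mean signals was 4.92. Smaller changes than these bounds could not be told from none, and dim signals do not show that these RNAs were absent.

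**Figure D2:**
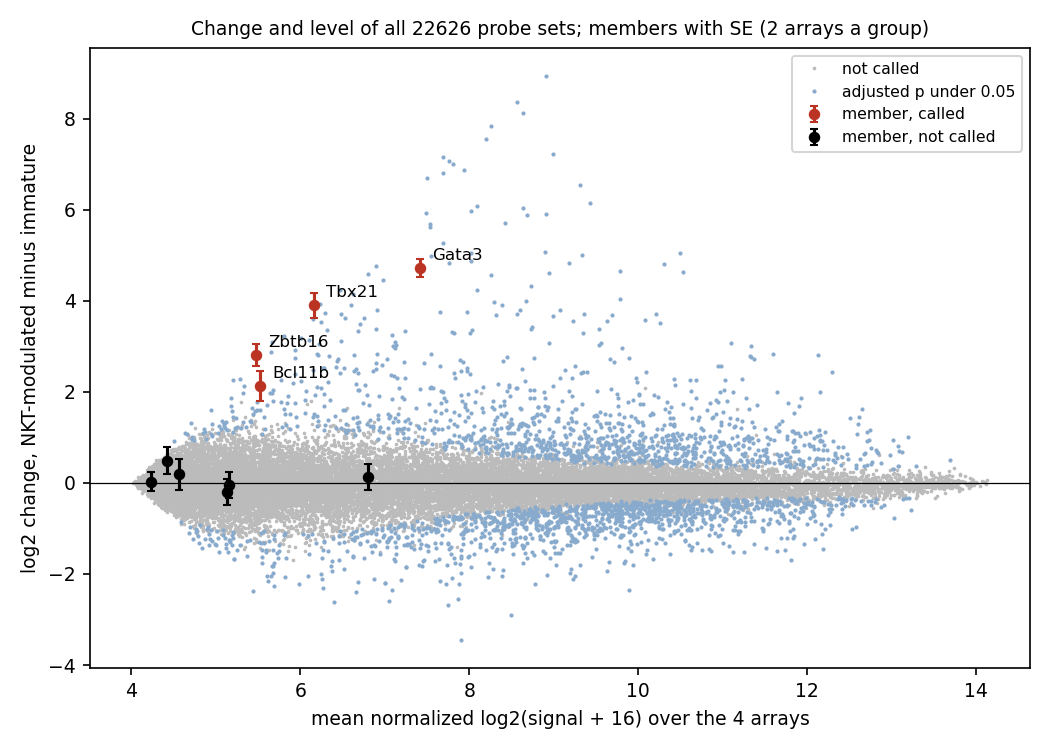
Log2 change (NKT-modulated minus immature) against mean normalized log2(signal + 16) for every probe set tested; blue dots passed at an adjusted p under 0.05 and grey dots did not. Red points with SE bars are the 4 called probe sets of Gata3 (4.72), Tbx21 (3.90), Zbtb16 (2.81) and Bcl11b (2.12). Black points are the 6 others, with changes from -0.20 to 0.49.

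**Figure D3:**
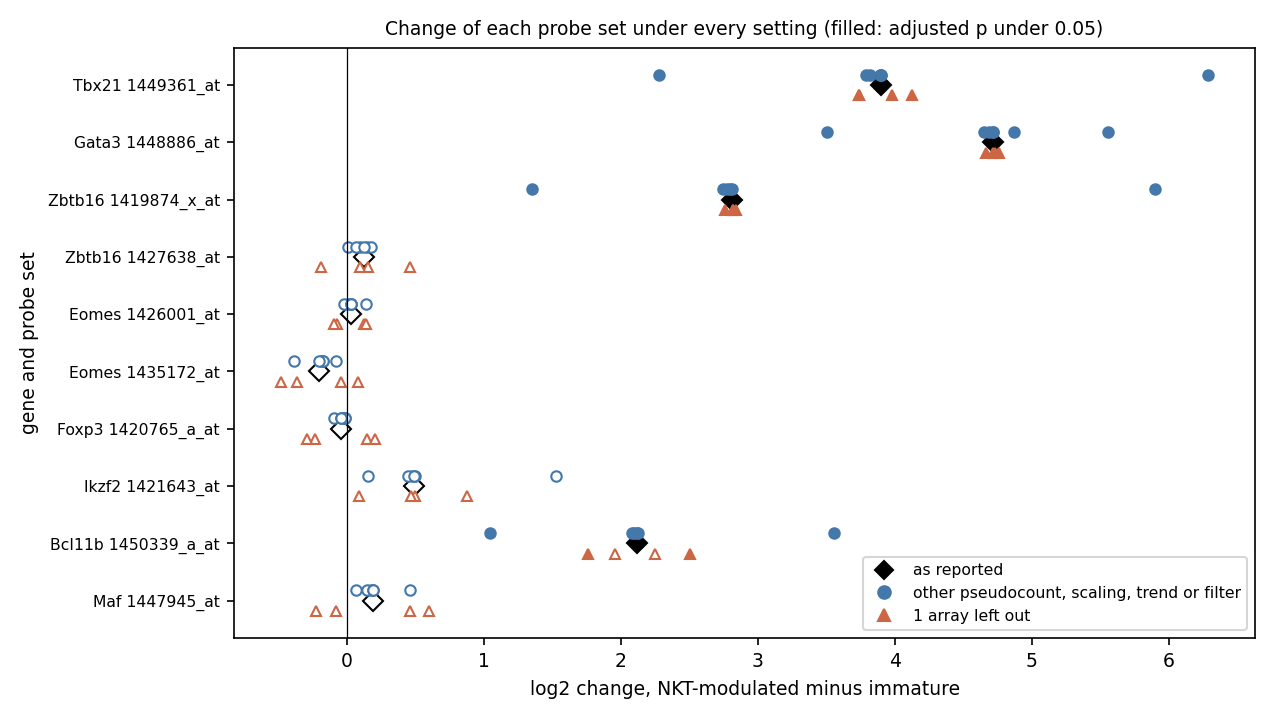
Log2 change of the 10 probe sets as reported (diamonds), with another pseudocount, scaling, variance trend or filter (circles) and with 1 array left out (triangles); filled symbols passed at an adjusted p under 0.05. Gata3, Tbx21 and probe set 1419874_x_at of Zbtb16 are filled throughout, and Bcl11b has 2 open triangles.

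Close relatives of the factors, by DNA-binding family, had changes from -0.57 to 1.39. They were picked after their values were seen, from a list of other lymphocyte factors, and are given by their brightest probe set. Their counts stand beside 5.99% higher and 6.88% lower among all genes. Of 4 T-box relatives (T-box genes other than Tbx21 and Eomes), 0 were called, with changes from 0.14 to 0.90 and a smallest adjusted p of 0.0819. Gata1 and Gata2, GATA factors of blood cells outside the T lineage, had changes of 0.61 ± 0.27 and -0.49 ± 0.20 (adjusted p = 0.239 and 0.202). Of 3 small MAF genes, 1 was called: Maff rose by 0.91 ± 0.11. Of 2 Ikaros relatives of Ikzf2, 1 was called (Ikzf4, below). The other, Ikzf1, had a change of 0.16 ± 0.32 (adjusted p = 0.826). Bcl11a, the relative of Bcl11b that acts in B cells and plasmacytoid DC, rose by 0.78 ± 0.18 (adjusted p = 0.0437), but it missed the threshold when any 1 of the 4 arrays was left out, with changes from 0.58 to 0.98. Ikzf4, the gene of Eos, a partner of FOXP3, rose by 0.77 ± 0.16 (adjusted p = 0.0348) and likewise missed it without any 1 array, with changes from 0.61 to 0.93. Of 6 ZBTB relatives of Zbtb16, 1 was called: Zbtb32, a repressor induced in activated lymphocytes, rose by 1.39 ± 0.30 (adjusted p = 0.0363), from 39.3 and 77.8 to 157 and 152. It missed the threshold without immature replicate 1 (1.02) and without NKT-modulated replicate 1 or 2 (1.43 and 1.41). Lef1, which shares its DNA-binding domain type with Tcf7, had a change of -0.40 ± 0.24 (adjusted p = 0.391), with signals of at most 15.0.

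Among other lymphocyte transcription factors, a list chosen with earlier results of these data known, were both rises and falls. By their brightest probe set 14 of the 60 measured rose and 8 fell, and the list had a median change of 0.11; over all genes 5.99% were called higher and 6.88% lower, with a median of -0.04. Leaving out 1 array gave 8 to 11 rises and 2 to 5 falls: 9 and 2 without immature replicate 1, 8 and 3 without NKT-modulated replicate 1, and 5 and 3 falls without immature replicate 2 and NKT-modulated replicate 2. Ets1, an ETS factor abundant in T and NK cells, rose by 4.25 ± 0.34, from signals of 29.1 and 76.3 to 1333 and 961. Satb1, a chromatin organiser of thymocytes, rose by 3.90 ± 0.15, Gfi1, a repressor that supports type 2 cell growth, by 3.03 ± 0.20, and Prdm1, the gene of BLIMP-1, by 2.43 ± 0.12. Irf4, used by both DC and effector T cells, rose by 1.14 ± 0.08. Fli1, an ETS factor of blood cells, fell by 1.45 ± 0.11. The 3 brightest that did not pass were Id2, Bhlhe40 and Egr1, with changes of -0.10 ± 0.09, 0.22 ± 0.08 and 0.63 ± 0.23; without immature replicate 1 the change of Egr1 was 1.02 and passed (adjusted p = 0.00525). Rora, a nuclear receptor that acts in IL-17 producing cells, rose by 1.45 ± 0.16, from 141 and 154 to 358 and 388.

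Genes tied to each factor were then counted by programme. Over all genes 5.99% were called higher and 6.88% lower, and the counts of every programme below stand beside these shares. The lists overlap, and they hold genes that DC express as well, so that they do not separate cell types. They were chosen with earlier results of these data known, so their counts are not independent support for the rises of the factors. The type 2 and NKT2 programme of Gata3 had 12 rises and 0 falls among 18 genes, at a median change of 1.58. The cytokine genes Il5, Il13 and Il4 rose by 8.94 ± 0.13, 8.36 ± 0.13 and 7.22 ± 0.18, and Il9 by 3.26 ± 0.26. Cxcr6, counted in this list, is a chemokine receptor of NKT and effector T cells and so not particular to type 2 cells. Its rise was 5.88 ± 0.15. Ccr8, a receptor of type 2 and regulatory T cells that was picked after its values were seen, rose by 2.13 ± 0.24, from 3.87 and 2.63 to 72.4 and 61.1.

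The type 1 and NKT1 programme of Tbx21 had 6 rises and 1 fall among 16 genes, at a median change of 0.74. Ifng, the signature cytokine gene of T-bet cells, rose by 7.0 ± 0.25, from 1.76 and 5.66 to 3124 and 1969. Gzmb, encoding granzyme B, rose by 5.97 ± 0.30, Il2rb, the IL-2 and IL-15 receptor chain, by 4.14 ± 0.23, Xcl1, a chemokine of NK and T cells, by 3.63 ± 0.31, and Il12rb1, an IL-12 receptor chain, by 2.31 ± 0.27. Irf1, a factor induced by interferon gamma in many cell types, rose by 2.72 ± 0.10. The single fall was Il18r1, the IL-18 receptor chain, which fell by 1.81 ± 0.24; without immature replicate 1 its change was -1.56 (adjusted p = 0.0528), and the list then held 0 falls. With a filter on dim probe sets 10 of the genes rose.

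The type 17 programme had 7 rises and 2 falls among 15 genes, at a median change of 0.44. Il17a rose by 6.54 ± 0.20, from 45.0 and 57.4 to 7781 and 5015, Il21 by 3.33 ± 0.28, Il1r1, the IL-1 receptor, by 1.68 ± 0.20 and Stat3, the signal transducer of IL-6 and IL-23, by 1.01 ± 0.10. Ahr, the aryl hydrocarbon receptor, fell by 0.66 ± 0.09 and Ccr6, a chemokine receptor of these cells and of some DC, fell by 1.12 ± 0.19. The list held 1 fall without immature replicate 1 (Ahr), 1 without NKT-modulated replicate 1 (Il17re, an IL-17 receptor chain named after its values were seen, at -2.10 against -0.89 with all arrays), and 0 without NKT-modulated replicate 2 or without the intensity trend. Ahr missed the threshold without either NKT-modulated array (-0.70 and -0.61), and Ccr6 without immature replicate 1 (-0.88) and without NKT-modulated replicate 1 or 2 (-0.99 and -1.23).

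The regulatory T cell programme rose in part while Foxp3 and Ikzf2 did not pass. It had 11 rises and 1 fall among 19 genes, at a median change of 0.77. Leaving out immature replicate 1, immature replicate 2 or NKT-modulated replicate 1 gave 7, 7 and 6 rises, and a fit without the intensity trend gave 5. Icos, a costimulatory receptor of activated T cells, rose by 2.31 ± 0.13, Fgl2 by 1.24 ± 0.09, Il2ra, the IL-2 receptor chain CD25, by 1.62 ± 0.16, Socs2, a cytokine signalling inhibitor, by 0.78 ± 0.07 and Tnfrsf9, the receptor 4-1BB, by 0.72 ± 0.09. Without the intensity trend Socs2 and Tnfrsf9 had adjusted p = 0.0521 and 0.0656. Icos, Il2ra and Tnfrsf9 are also made by activated conventional T cells. Several of these genes were already bright in immature DC. There Socs2 read 3914 and 4476, Tnfrsf9 2196 and 2304, Fgl2 1322 and 1680, and Il2ra 805 and 700. Icos was dimmer there, at 232 and 317. Ctla4, an inhibitory receptor that was picked after its values were seen, rose by 2.55 ± 0.38, from 9.27 and 34.1 to 191 and 162, and had adjusted p = 0.0597 without NKT-modulated replicate 1. Itgae, the integrin CD103 of regulatory T cells and of some DC, fell by 1.80 ± 0.11, from 1777 and 1968 to 444 and 514.

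Of 12 genes of the follicular helper programme, 4 rose and 1 fell. The rises were Icos, Il21, Slamf6 (1.10 ± 0.16) and Pdcd1, the gene of PD-1 (1.37 ± 0.21), and the fall was Bcl6, the defining factor of these cells and a DC factor too, by 1.28 ± 0.11. Without NKT-modulated replicate 1 the rises numbered 2: Slamf6 missed the threshold without either NKT-modulated array (1.13 and 1.08), and Pdcd1 without immature replicate 1 or 2 (1.37 and 1.32) and without NKT-modulated replicate 1 (1.29). Of 18 genes of the naive and early T cell programme, 5 rose and 1 fell. Beside Satb1 and Gfi1, Cd27 rose by 1.16 ± 0.24, Foxo1 by 0.67 ± 0.12 and Il7r, the IL-7 receptor, by 0.40 ± 0.08, while Id3, an inhibitor of E proteins, fell by 1.72 ± 0.21. The rises numbered 3 without immature replicate 2 and 2 without any other single array, and without immature replicate 1 Id3 no longer passed (change -1.69, adjusted p = 0.0507). Cd27 and Foxo1 missed the threshold when any 1 array was left out, with changes from 1.08 to 1.24 and from 0.57 to 0.76, and Il7r without immature replicate 1 (0.35) or either NKT-modulated array (0.40 and 0.39).

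**Figure D4:**
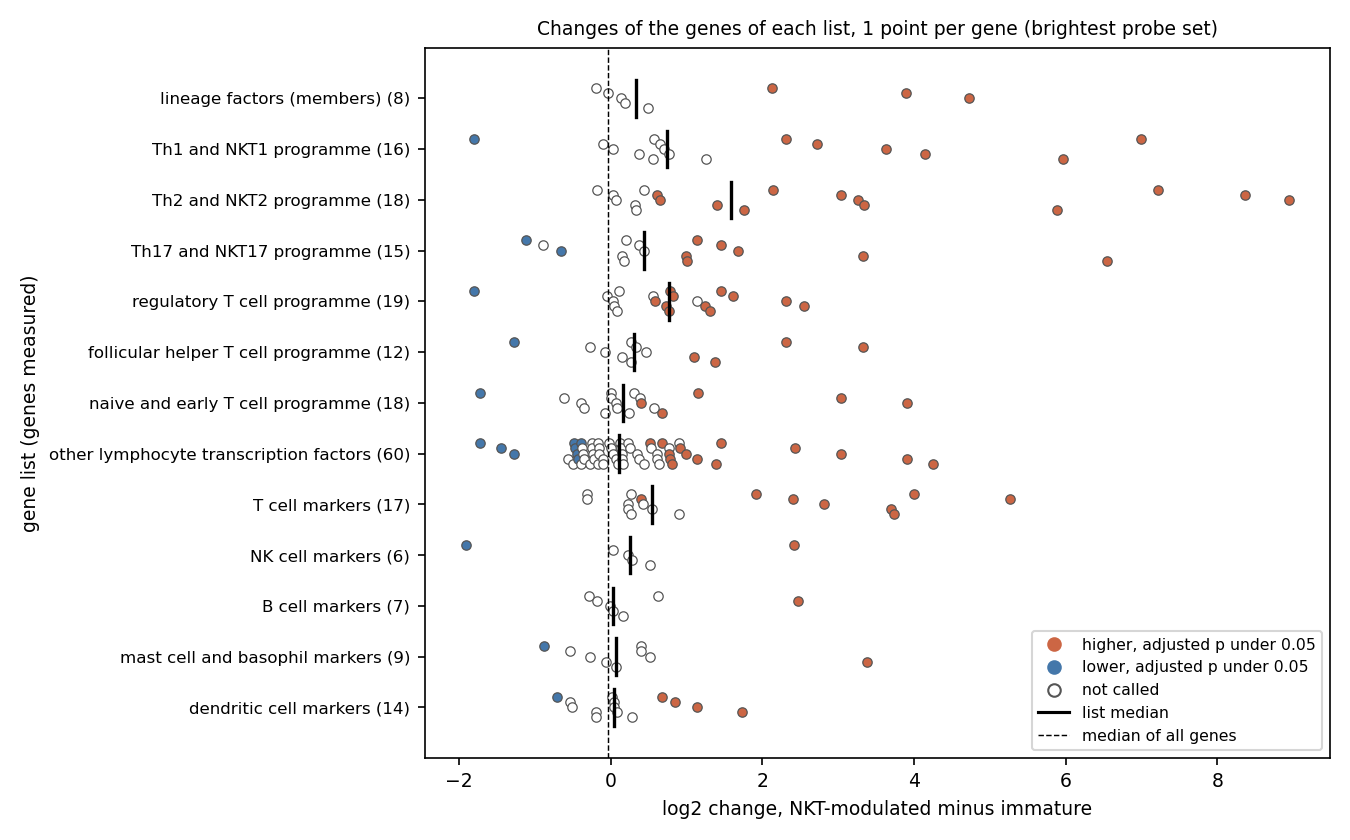
Log2 change of every measured gene of each list (1 point per gene, brightest probe set), with orange points for rises and blue points for falls at an adjusted p under 0.05, white points for genes that did not pass, a bar at the list median and a dashed line at the median of all genes (-0.04). The type 2 list has its median at 1.58 and its highest point at 8.94, and the B cell, mast cell and basophil, and DC lists have medians between 0.03 and 0.07.

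T cell markers rose in part, and 9 of 17 did not pass. This list too was chosen with earlier results of these data known. The T cell list had 8 rises and 0 falls, at a median change of 0.54, against 5.99% higher and 6.88% lower among all genes. The summed signal of the 17 was 4254 and 4836 against 10695 and 8837, immature DC first, and the 4 CD3 chains rose among them. Il7r alone gave 3144 and 3740 against 4674 and 4483 of these sums. Cd3g rose by 5.26 ± 0.20, Cd3d by 3.73 ± 0.28, Cd3e by 3.70 ± 0.35 and Cd247 by 2.81 ± 0.36. Thy1 rose by 4.0 ± 0.19, Lat, an adaptor of T cell receptor signalling, by 2.40 ± 0.25 and Cd28 by 1.91 ± 0.32, which missed the threshold without either NKT-modulated array (1.82 and 2.06). The coreceptor genes did not pass: Cd4 read 12.8 and 16.2 against 48.2 and 33.1 (change 0.90 ± 0.26, adjusted p = 0.0859), and Cd8a read 57.4 and 42.5 against 36.9 and 35.8. Nor did Cd2, Cd5, Cd6 and Zap70, named after their values were seen, with changes of 0.42, 0.23, 0.23 and 0.26. The part of T cell RNA in the rises of Gata3, Tbx21, Zbtb16 and Bcl11b was not tested.

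Counts for markers of other cells, in lists likewise chosen with earlier results known, stand beside 5.99% higher and 6.88% lower among all genes. Most of the immature sums for NK, B and mast cell markers came from 1 gene each. It was Klrd1 (639 and 717) among NK, Cd22 (511 and 691) among B and Kit (626 and 736) among mast cell markers. Of 6 NK cell markers, 1 rose (Nkg7, by 2.42 ± 0.23) and 1 fell (Klrd1, by 1.91 ± 0.16), with summed signals of 809 and 882 against 570 and 500.1; Ncr1, which defines NK cells, read 3.61 and 3.46 against 4.26 and 4.06. Of 7 B cell markers, 1 rose (Cd79b, by 2.47 ± 0.23), with sums of 765 and 952 against 957 and 906, and Cd79a read 10.4 and 23.8 against 25.1 and 9.09. Of 9 mast cell and basophil markers, 1 rose (Hdc, histidine decarboxylase, by 3.38 ± 0.22) and 1 fell (Kit, by 0.88 ± 0.18), with sums of 812 and 899 against 900 and 783; the fall of Kit missed the threshold without immature replicate 1, without immature replicate 2 and without NKT-modulated replicate 2. Of 14 DC markers, 4 rose and 1 fell, with sums of 69436 and 66470 against 82915 and 76526. Batf3, needed by cross-presenting DC, rose by 1.74 ± 0.09, Cd86 by 0.85 ± 0.10 and Irf8 by 0.67 ± 0.09, while Itgam, the integrin CD11b, fell by 0.71 ± 0.14 and missed the threshold when any 1 array was left out. Without NKT-modulated replicate 1 or 2, Irf8 had adjusted p = 0.0512 and 0.0505. Itgax, the gene of CD11c, had signals of 5442 and 5537 against 5253 and 4643 and did not pass (adjusted p = 0.204). Of the 14 DC markers, 0 lay below the median signal on all 4 arrays. Spi1, the gene of PU.1, had a change of -0.51 ± 0.17 (adjusted p = 0.130), and it was -0.77 with adjusted p = 0.0270 without immature replicate 1. Without the intensity trend Cd86 and Irf8 had adjusted p = 0.0586 and 0.0780.

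The genes whose change was most like that of each called factor were taken as the 3 with the smallest Euclidean distance over the 4 arrays, in normalized log2 values centred on the immature mean. For Tbx21 they were Satb1 (distance 0.21), Nr4a1, an immediate early nuclear receptor (0.23), and Thy1 (0.25). For Gata3 they were F2r, a thrombin receptor (0.20), Iigp1, an interferon-inducible GTPase (0.21), and Crabp2, a retinoic acid binding protein (0.23). For probe set 1419874_x_at of Zbtb16 they were Cd40 (0.13), Ifi47 (0.18) and Irf1 (0.21), and for Bcl11b they were Dusp2 (0.24), Il12rb1 (0.28) and Gimap3 (0.30). With 4 arrays in 2 groups this measure mostly matches the size of the change, so the neighbours include T cell genes such as Thy1 as well as Cd40, which DC express.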

How the data were processed

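RNA of 4 arrays was compared, 2 of immature and 2 of NKT-modulated DC. The deposited table has 22690 rows and holds intensity on a linear scale, with a value for each probe set on every array. Per the submitters' processing notes the authors used GCOS, the scanner maker's software; its version, summary method and scaling were not stated. The 64 control probe sets were left out. Signals were turned into log2(signal + 16), quantile normalized and fitted with limma 3.58.1 under R 4.3.3 (lmFit, then eBayes with a variance trend on intensity, 2 residual and 4.13 prior degrees of freedom, two-sided), with Benjamini-Hochberg adjustment over 22626 probe sets and a threshold of 0.05. No detection calls were used, and the number of arrays limits the precision. An exact permutation test of 2 against 2 arrays cannot reach the threshold and was not used.

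Probe sets were named through the platform's annotation, with symbols updated by gene ID through a RefSeq table (GRCm38.p6, 20351 matched). Of those tested, 20380 had 1 symbol, 691 several and 1555 none; a probe set with several names no gene. In lists, a gene is its brightest probe set. The members and lists were chosen with earlier results of these data known. Named were all member probe sets, up to 6 called genes of each list with the smallest p, the 3 brightest uncalled other lymphocyte factors, defining T cell and DC markers and the 3 nearest genes by change; exceptions are said to be so or are the few calls of a list. Alternatives covered the pseudocount, the scaling, the variance trend, a filter on dim probe sets (a signal of 100 in at least 2 arrays), the choice of probe set and leaving out each array. The steps were run on data simulated from the variance model of the same fit, which checks the code and not whether that model holds for these arrays.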

Additional observations from a re-analysis of the deposited data

How the results depend on the processing

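The number of higher member probe sets, 4 as reported, was 3 to 4 when 1 array was left out and 2 with the filter on dim probe sets, which left only those of Gata3 and Tbx21 in the fit; the number of lower ones was 0 in every alternative. Bcl11b ranged from 1.76 to 2.51 over arrays left out. Of the changes that did not pass, several turned sign when 1 array was left out: probe set 1427638_at of Zbtb16 ranged from -0.19 to 0.46, the 2 probe sets of Eomes from -0.09 to 0.14 (1426001_at, also -0.02 after cyclic loess) and from -0.48 to 0.08, Foxp3 from -0.29 to 0.21 and Maf from -0.22 to 0.60. Id2 was 0 without further normalization and 0.06 after scaling to a trimmed mean. Over all probe sets 1212 were higher and 1289 lower; leaving out 1 array gave 624 to 822 and 446 to 625, and a fit without the intensity trend gave 625 and 420. That fit also gave 7 rises and 3 falls among other lymphocyte factors, 5 rises in the regulatory list, 3 in the naive list, 0 falls in the type 17 and the mast cell lists, and 2 rises and 0 falls among DC markers. Falls among other lymphocyte factors were 5 with a pseudocount of 64 and 3 after cyclic loess. The naive list had 3 rises without further normalization, and the type 1 list 10 with the filter. DC markers had 2 falls after scaling to a trimmed mean, with the filter, and when any probe set of a gene could be called. With 1 array left out, the ranges were 0 to 1 falls in the type 1 list, 0 to 2 in the type 17 list, 0 to 1 in the naive list, 0 to 1 among mast cell markers, 0 to 1 among DC markers and 2 to 5 among other lymphocyte factors, and 6 to 9 rises in the regulatory list, 2 to 3 in the follicular list, 2 to 3 in the naive list and 8 to 11 among other lymphocyte factors. Fewer arrays leave fewer degrees of freedom, and the cause of the other shifts was not tested. Of 895 recomputed changes of 82 other genes, 821 kept their direction and side of the threshold, 68 kept the direction but missed it, 4 passed anew and the 2 values of Id2 above turned. No paired analysis was possible because the labels give the groups no shared replicate numbers.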
